A study of Homo sapiens with 6 samples.

Results

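The 10 cadherin genes CDH1, CDH2, CDH3, CDH4, CDH6, CDH11, CDH13, CDH15, CDH19 and CDH24 were examined in WM164 melanoma cells that carried either an HDAC8 expression vector or an empty vector (EV). They were chosen by gene symbol, and each matched 1 row of the 60504 genes in the table. WM164 is a human melanoma cell line with the BRAFV600E mutation, which both groups share. HDAC8 removes acetyl groups from histones and other proteins. RNA-seq gave 3 libraries (bioreps 1 to 3) for either vector. Cells were transfected and then maintained in hygromycin. Whether the HDAC8 and EV lines were pools or single clones, and whether bioreps were separate cultures, is not given in the sources used here, so p-values measure the spread between these libraries.

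Cadherins are calcium-dependent adhesion proteins that bind a like molecule on the next cell. Inside the cell, the tail of a classical cadherin holds p120-catenin and beta-catenin, and alpha-catenin links the complex to actin. In skin, E-cadherin (CDH1) and P-cadherin (CDH3) join melanocytes to keratinocytes, and many melanomas have little E-cadherin and much N-cadherin (CDH2), a pattern known as the cadherin switch. CDH1, CDH2, CDH3, CDH4 and CDH15 are type I cadherins, while CDH6, CDH11, CDH19 and CDH24 are type II. CDH13 is the exception in the family, since it is held to the membrane by a lipid anchor and has no catenin-binding tail.

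Total counts ran from 34741083 to 42041462 per library. The HDAC8 transcript itself did not check the labels (log2 fold change 0.15, SE 0.28, DESeq2 adjusted p = 0.856), so directions are those of libraries labelled HDAC8 against those labelled EV. Mitochondrial transcripts took 9.66% to 12.8% of counts in EV and 4.46% to 7.94% in HDAC8, with HDAC8 1 lowest. Among lineage markers, SOX10 had normalized counts from 9685 to 18068 and MITF from 11314 to 17920, and 5 of 7 melanocytic markers (PMEL, TYR, DCT, MLANA and S100B) were lower in HDAC8. Of 4 leukocyte markers, 2 were higher in HDAC8 (CD68 and CD3E, the last with no count in EV), while PTPRC had 3 counts in HDAC8 1 alone. Of 6 fibroblast markers, 1 was higher (PDGFRA), 0 were lower, and DCN was at 0 in all 6 libraries. LUM, not called, had 2662, 2205 and 2519 normalized counts in EV and 1054, 2158 and 1676 in HDAC8. COL1A1, also not called, had 102, 95.3 and 105 in EV and 79.5, 29.7 and 0 in HDAC8. Of 5 endothelial markers, 0 were called.

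Only 3 of the 10 cadherins had substantial transcript in WM164: CDH2, CDH19 and CDH24. CDH19 was the only member called, and it fell. CDH2 was higher in every HDAC8 library than in any EV library but did not pass the test. CDH1 was at a low level in EV and had no count in HDAC8 2 and HDAC8 3. A gene was called when DESeq2 gave an adjusted p under 0.05 over all genes and a log2 fold change of 0.58 or more in either direction. By this rule 0 members were higher and 1 was lower, of the 8 that had an adjusted p. Over all genes, 11% were called, with 5.57% higher and 5.44% lower, so 1 of 8 is close to the background. Unadjusted p was under 0.05 for 2 members by DESeq2, and edgeR's quasi-likelihood test also called 0 higher and 1 lower. The median log2 fold change of these 8 members was -0.42, against -0.003 over all genes with an adjusted p. This median lies between the values of CDH13 (-0.64) and CDH24 (-0.20), neither of them called. As CDH13 had few counts, no shared direction of the members can be read from it. CDH6 was tested but received no adjusted p, and CDH11 had no counts.

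**Figure D1:**
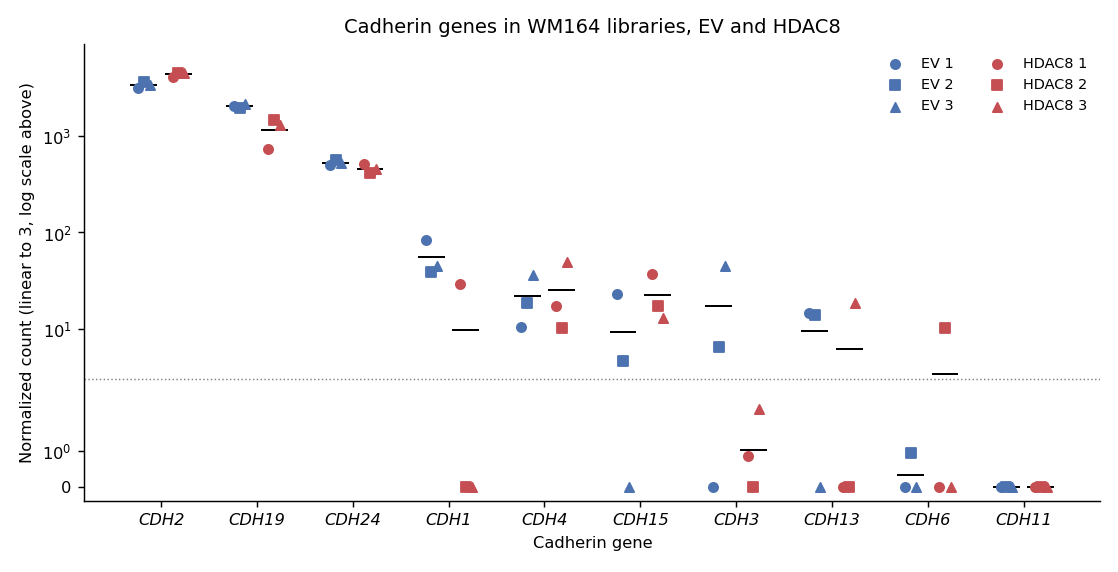
Normalized counts (y axis, linear up to 3 and logarithmic above) of the 10 cadherin genes in each EV (blue) and HDAC8 (red) library, with the replicate number as the symbol and a bar at each group mean. CDH2, CDH19 and CDH24 sit at 413 or more in all 6 libraries, and the other 7 genes sit under 100, many of them at 0; the dotted line marks 3.

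To place CDH2 and CDH19, the most abundant members, the sequence upstream of their RefSeq start (GRCh38.p14) is shown. Both genes lie on the minus strand of chromosome 18, with 38323 kilobases between them. The bases run 5′ to 3′ from 250 to 51 bases before the start and overlap no GENCODE exon. Capitals mark a match to any of the motifs searched.

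CDH2, chr18:28177181-28177380: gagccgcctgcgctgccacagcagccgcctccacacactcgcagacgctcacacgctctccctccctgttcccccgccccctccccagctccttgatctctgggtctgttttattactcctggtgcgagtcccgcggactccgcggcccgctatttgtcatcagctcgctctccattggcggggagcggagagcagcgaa
CDH19, chr18:66604141-66604340: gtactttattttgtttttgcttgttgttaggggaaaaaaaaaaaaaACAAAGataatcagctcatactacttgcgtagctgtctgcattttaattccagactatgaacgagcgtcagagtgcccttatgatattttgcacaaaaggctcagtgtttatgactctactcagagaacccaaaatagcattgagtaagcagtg

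Over the 250 bases before the start, the CDH2 window was 66.0% G or C with 17 CG pairs, and the CDH19 window was 38.0% G or C with 4. The CDH2 window shown, 28177181 to 28177380, lies inside the GENCODE span of the gene, 27932879 to 28177946, though it overlaps no exon. A second RefSeq start of CDH2, further inside the gene, is not shown. Its window had 42% G or C with 4 CG pairs. The median over all 35116 promoter windows was 58.0%. Motifs were searched on both strands, and none is contained in another. The E-box that SNAIL and ZEB factors bind was read as CAGGTG, and 17.5% of all windows hold it. The M-box of MITF was read as CATGTG, which 9.42% hold. The palindromic E-box was read as CACGTG, which 6.34% hold. The AP-1 site was read as TGACTCA, which 4.203% hold, and the SOX core as ACAAAG, which 13.7% hold. The CDH19 window held the SOX core, from 204 to 199 bases before the start, and no other of these letters. Neither CDH2 window held any of them. Promoters of 3 members (CDH2, CDH4 and CDH19) were matched in the RefSeq table. A CDH4 window, not shown, held the SNAIL and ZEB E-box from 16 to 11 bases before the start.

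CDH19 is a type II cadherin of cells that arise from the neural crest, as melanocytes do. Its normalized counts were 2058, 1951 and 2132 in EV and 732, 1460 and 1308 in HDAC8. The groups did not overlap, and HDAC8 1 was the lowest by a wide margin. The mean fell from 2047 ± 90.9 to 1167 ± 384 (SD, n = 3 each). DESeq2 put HDAC8 at 0.570 of EV, with a 95% interval of 0.409 to 0.793. On the log2 scale this was -0.81 with an SE of 0.24, at a DESeq2 adjusted p of 0.0103. As bulk RNA was measured, fewer cells with the transcript and less transcript per cell cannot be told apart. The call rested on few libraries. Without HDAC8 1 the log2 fold change was -0.57, under the fold minimum (DESeq2 adjusted p = 0.00747), and without EV 1 or EV 3 the DESeq2 adjusted p was 0.0663 or 0.0788. The direction was lower in all 16 alternatives, from -1.001 to -0.566 on the log2 scale. Those that change only the test or the threshold keep the main estimate, so their direction was fixed.

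The melanocytic markers, 5 of 7 of them called lower, had summed normalized counts of 244898 to 328728 in EV and 137043 to 182218 in HDAC8. These sums cover all 7, SOX10 and MITF included, which were not called, and PMEL is their largest part. Their part in the CDH19 result was not tested.

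CDH2 encodes N-cadherin, the cadherin of neural and mesenchymal cells and of many melanomas. Its normalized counts were 3146, 3657 and 3419 in EV and 4077, 4547 and 4473 in HDAC8. All HDAC8 libraries were above all EV libraries. Such separation was found in 3 members, CDH1, CDH2 and CDH19, and in 24% of all genes tested. The CDH2 means were 3407 ± 256 and 4366 ± 253 (SD, n = 3 each), 0.36 apart on the log2 scale with an SE of 0.15 (DESeq2 adjusted p = 0.0907). The fold was 1.28 with a 95% interval of 1.05 to 1.56. The 3-against-3 design cannot give an exact two-sided permutation p under 0.1, and CDH1, CDH2 and CDH19 each reached 0.1. The DESeq2 adjusted p for CDH2 went under 0.05 with total-count size factors (0.0338) and without HDAC8 1 (0.0176), but the log2 fold change stayed between 0.30 and 0.41 in every alternative and so under the minimum.

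**Figure D2:**
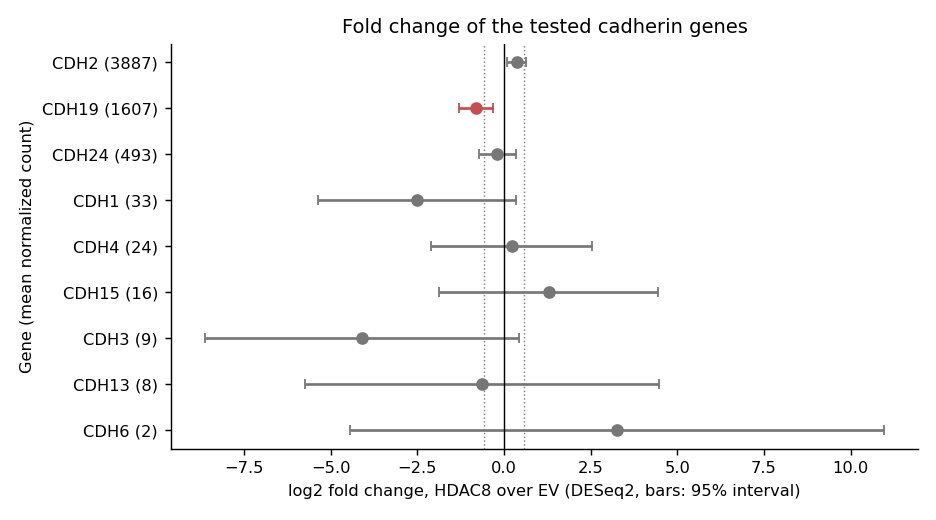
DESeq2 log2 fold change of HDAC8 over EV (x axis) for the 9 tested cadherins, ordered by level, with 95% intervals and each gene's mean normalized count in brackets; dotted lines mark 0.58 in each direction and red marks the called gene. The interval of CDH19 lies wholly below 0 and that of CDH2 wholly above it, while the genes with few counts have intervals several log2 units wide.

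CDH24 is a type II cadherin and the third abundant member. Its normalized counts were 495, 566 and 519 in EV and 510, 413 and 453 in HDAC8, and the groups overlapped. HDAC8 stood at -0.20 from EV on the log2 scale, with an SE of 0.27 (DESeq2 adjusted p = 0.774). The 95% interval of the fold ran from 0.602 to 1.26, so a small change in either direction was not detectable here.

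The coefficient of variation was 7.51% in EV and 5.79% in HDAC8 for CDH2, and 6.86% and 10.7% for CDH24. For CDH19 it was 4.44% in EV and 32.9% in HDAC8, where HDAC8 1 stood lowest. In the members with few counts it ran up to 173%, which is the value when a single library of 3 holds all the reads.

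CDH1 encodes E-cadherin, the main cadherin of epithelia. It had 79, 42 and 46 counts in EV and 34, 0 and 0 in HDAC8. The groups did not overlap, since HDAC8 1 was under the lowest EV library also after scaling (29.1 against 39.2 normalized counts). The mean was 55.8 ± 23.6 normalized counts in EV and 9.69 ± 16.8 in HDAC8 (SD, n = 3 each). DESeq2 placed HDAC8 at -2.51 from EV on the log2 scale, with an SE of 1.46 and an adjusted p of 0.299, and the 95% interval of the fold reached from 0.0242 to 1.27. The call depended on the method and on HDAC8 1. It was made by limma-voom (adjusted p = 0.0471) and without HDAC8 1 (DESeq2 adjusted p = 1.56e-04), and not by edgeR. A count of 0 at this depth allows up to 3 counts, or 3.07 and 3.27 normalized counts in HDAC8 2 and HDAC8 3.

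CDH3, P-cadherin, lies 9823 bases from CDH1 on chromosome 16 and was lower still. It had 0, 7 and 46 counts in EV and 1, 0 and 2 in HDAC8. Most of the reads came from EV 3, and EV 1 had none, so the groups overlapped. Over the groups, 53 counts stood against 3, a ratio of 17.8 of EV to HDAC8 with an exact 95% interval of 5.77 to 89.1 that covers counting error only. On the log2 scale DESeq2 gave -4.11 with an SE of 2.31 and an adjusted p of 0.279. EV 3 held 46 of the 53 counts, and without it the log2 fold change was -1.71, with no adjusted p.

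CDH1 and CDH3 are also cadherins of keratinocytes, so markers of those cells were measured beside them. Of 6 keratinocyte markers, 1 was higher in HDAC8 (KRT15) and 0 were lower, and their summed normalized counts were 178 to 322 in EV and 230 to 334 in HDAC8. KRT1 was at 0 in all 6 libraries, and TP63, which defines basal keratinocytes, had counts in EV 2 alone. KRT5 had normalized counts of 36.7, 31.8 and 63.0 in EV and 41.0, 0 and 5.44 in HDAC8, highest in EV 3 as CDH3 was. KRT14 differed from this, with its highest value of 25.0 in HDAC8 3, and so did KRT10, with its highest value of 239 in EV 1. KRT15 had 10.5, 23.3 and 44.3 in EV and 131, 158 and 64.2 in HDAC8, opposite in direction to CDH1 and CDH3. The part of the keratinocyte markers in the CDH1 and CDH3 values was not tested.

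The other members were near the limit of detection. CDH4, the R-cadherin of retina and nervous system, had 10, 20 and 37 counts in EV and 20, 10 and 45 in HDAC8. CDH15, the M-cadherin of muscle, had 22, 5 and 0 counts in EV and 43, 17 and 12 in HDAC8. These groups overlapped, and the log2 fold changes were 0.22 for CDH4 (DESeq2 adjusted p = 0.963) and 1.28 for CDH15 (DESeq2 adjusted p = 0.745). With 1 library left out, the CDH15 value ran from 0.69 (without EV 3) to 3.26 (without EV 1), and it was never called.

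CDH13, the lipid-anchored T-cadherin, had 14, 15 and 0 counts in EV and 0, 0 and 17 in HDAC8. CDH6, the K-cadherin of kidney, had 1 count in EV 2 and 10 in HDAC8 2. CDH11, the OB-cadherin of bone-forming and mesenchymal cells, had no count in any of the 6 libraries, which allows up to 3 counts per library or 2.57 to 3.27 normalized counts. Leaving out 1 library moved the CDH13 log2 fold change from -0.64 to between -5.80 (without HDAC8 3) and -0.05 (without HDAC8 2). No direction could be read for these genes at this depth (DESeq2 adjusted p = 0.946 for CDH13).

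To compare members with each other, normalized counts were divided by the length of the longest annotated transcript in kilobases. In EV the order was CDH2 at 848 ± 63.7, CDH19 at 325 ± 14.4 and CDH24 at 148 ± 10.2 normalized counts per kilobase (SD, n = 3), followed by CDH1 at 11.6 ± 4.91. The ranges of these neighbours did not overlap. From CDH1 downward (CDH3, CDH4, CDH15, CDH13, CDH6), each gene's range overlapped that of the next. In HDAC8 the order at the top was the same, with CDH2 at 1087 ± 63.0, CDH19 at 185 ± 61.0 and CDH24 at 129 ± 13.8. There the ranges of CDH19 and CDH24 overlapped, because CDH19 reached 116 in HDAC8 1. CDH1 moved from the fourth to the sixth place, behind CDH15 and CDH4, among genes whose ranges overlapped.

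The make-up of the family differed between the groups, while its sum overlapped. The summed level of the 10 members per kilobase was 1278 to 1396 in EV and 1297 to 1489 in HDAC8. CDH2 made up 61.3%, 65.2% and 62.6% of that sum in EV and 78.3%, 76.0% and 76.1% in HDAC8. CDH19 made up 25.6%, 22.2% and 24.9% in EV and 8.96%, 15.6% and 14.2% in HDAC8. CDH24 took 10.7% to 11.4% in EV and 7.80% to 11.1% in HDAC8. These shares are given without a test. They depend on the transcript length assumed: with the median length of each gene's transcripts, the EV shares were 44.8% for CDH2 and 43.1% for CDH19.

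**Figure D3:**
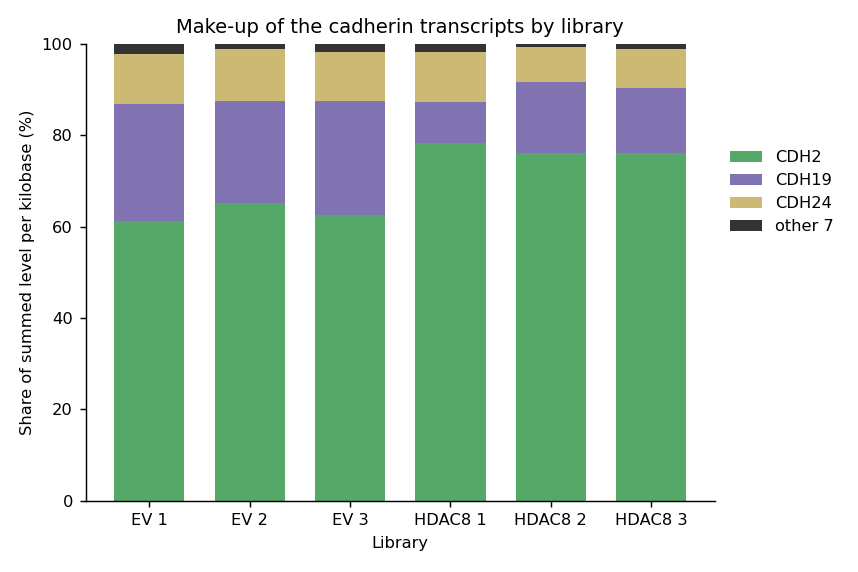
Share of the summed level per kilobase (y axis, percent) taken by CDH2, CDH19, CDH24 and the other 7 cadherins in each of the 6 libraries. CDH2 takes 61.3% to 65.2% in EV and 76.0% to 78.3% in HDAC8, and the CDH19 band is narrower in every HDAC8 library.

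The ratio of CDH19 to CDH2 within a library does not depend on the scaling between libraries or, as a comparison of groups, on length. This ratio was chosen after the values were seen. Per 100 counts of CDH2 there were 65.4, 53.3 and 62.3 counts of CDH19 in EV and 17.95, 32.1 and 29.2 in HDAC8. The ratio was lower in every HDAC8 library than in any EV library. This had to follow, as CDH19 was lower and CDH2 higher in every HDAC8 library, so it is no separate support. The corresponding numbers for CDH24 were 15.2 to 15.7 in EV and 9.08 to 12.5 in HDAC8. These did not overlap either, although the normalized counts of CDH24 did. For the pair that defines the cadherin switch, CDH1 stood at 2.20, 0.895 and 1.11 per 100 of CDH2, per kilobase, in EV and at 0.595, 0 and 0 in HDAC8. CDH2 was thus the far more abundant transcript in EV as well as in HDAC8. CDH3 stood at 0 to 1.195 per 100 of CDH2 in EV and at 0 to 0.0439 in HDAC8, and these ranges overlapped.

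**Figure D4:**
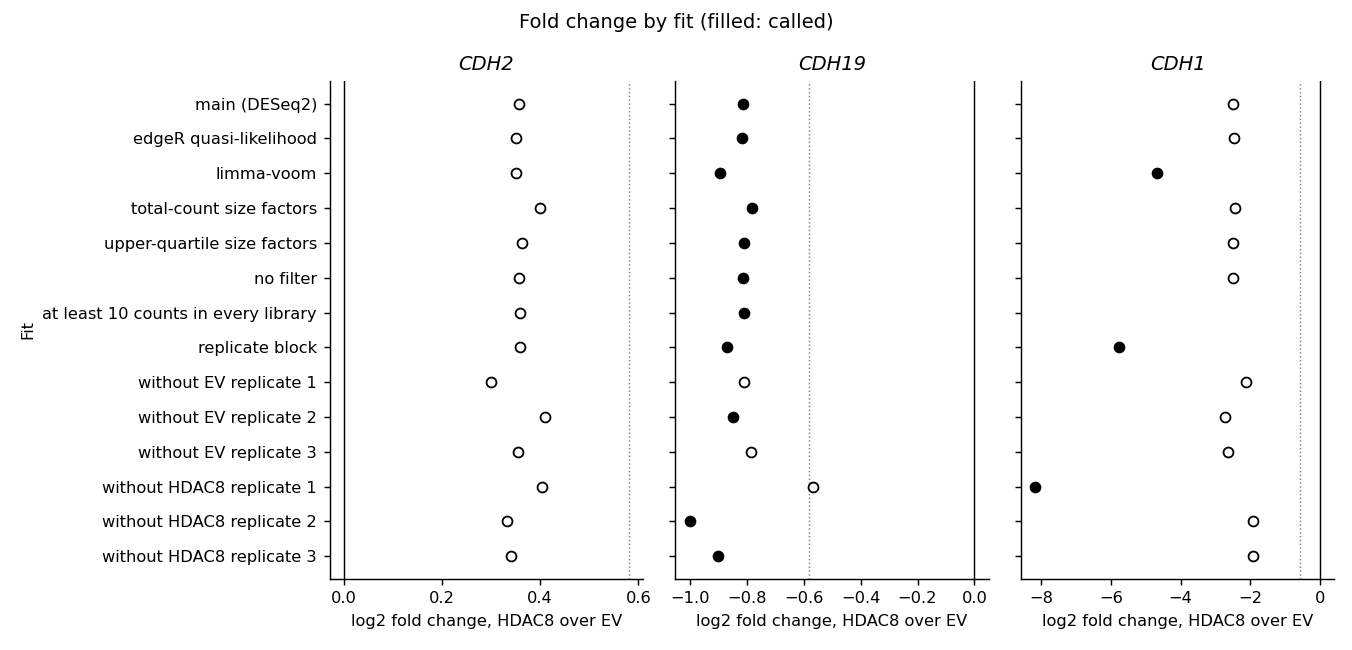
Log2 fold change of HDAC8 over EV (x axis, a separate scale in each panel) for CDH2, CDH19 and CDH1 in the main fit and in 13 alternative fits (y axis); filled points were called and the dotted line marks the fold minimum of 0.58. CDH2 lies between 0.30 and 0.41 and is never called, CDH19 is not called in 3 of the 6 fits that leave out a library, and CDH1 is called in 3 fits and has no point where at least 10 counts were required in every library.

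Members were scattered over the genome, with 5 on chromosome 16 (CDH1, CDH3, CDH11, CDH13 and CDH15), 2 on chromosome 18 (CDH2 and CDH19) and the rest on chromosomes 5, 14 and 20 (GENCODE 44, GRCh38). CDH1 spans 68737292 to 68835537 on the plus strand and CDH3 68636189 to 68727468 on the same strand. CDH2 spans 27932879 to 28177946 and CDH19 66501083 to 66604138 on the minus strand of chromosome 18. Within 250 kilobases of the members, 54 genes that are no members had an adjusted p. Of these, 3 (5.56%) were called, against 11% over all genes. HSBP1 (log2 fold change -0.66) and OSGIN1 (-0.87) were lower beside CDH13, and PRMT5 (0.69) was higher beside CDH24. Of the 4 neighbours of CDH1 and the 1 neighbour of CDH2, 0 were called by DESeq2, and CDH19 had no neighbour with an adjusted p.

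The genes whose pattern over the 6 libraries was most like that of CDH19 were RHOA, HIPK3, NR2C2, NDRG3 and AAK1, with Pearson's r from 0.996 to 0.998 on log2 normalized counts. As a description, 422 of 14450 genes with a mean of at least 50 had r above 0.95. The points share their libraries and fall into the EV and HDAC8 groups, with HDAC8 1 at the low end. Of these 5 genes, HIPK3 (log2 fold change -0.60) and NDRG3 (-0.77) were called lower.

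Other genes of cell junctions were examined to see what surrounded the cadherins. Over all genes with an adjusted p, 11% were called, 5.57% higher and 5.44% lower. A list below with 1 called gene is near that share. Most of the remaining classical cadherins were nearly silent. Of CDH5, CDH7, CDH8, CDH9, CDH10, CDH12, CDH18, CDH20 and CDH22, 5 had no count in any library and 6 had a total under 10. CDH7 and CDH8 had mean normalized counts of 51.5 and 83.7, above the 32.7 of CDH1. The 3 that were tested (CDH7, CDH8 and CDH12) were not called. CDH8 had the highest level, with normalized counts of 123, 78.5 and 100 in EV and 75.2, 67.6 and 57.7 in HDAC8, and its groups did not overlap (log2 fold change -0.59, DESeq2 adjusted p = 0.659).

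Among desmosomal genes, 3 rose and the others were at low counts or absent. Desmosomal cadherins are relatives of the classical ones that anchor intermediate filaments through desmoplakin. Of 11 genes of desmosomal cadherins and their plaque, 3 were higher and 0 lower, 4 were not called and the rest had no adjusted p. DSP, desmoplakin, had normalized counts of 71.3, 57.9 and 20.7 in EV and 2463, 2062 and 2060 in HDAC8. It rose by 5.46 on the log2 scale with an SE of 0.32 (DESeq2 adjusted p = 1.02e-63). DSC2, desmocollin 2, rose from 538 ± 92.8 to 4424 ± 1026 (SD, n = 3), or 8.23-fold. DSG2, desmoglein 2, rose from 7870 ± 262 to 17734 ± 2394, or 2.25-fold. The median log2 fold change of the list was -0.32, opposite in sign to these calls. The other 4 with an adjusted p (DSC3, DSG3, PKP2 and PKP3) each had at most 77.8 normalized counts in every library.

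Among 9 catenins, 6 had an adjusted p, and of these 1 was higher and 0 were lower (median log2 fold change 0.09). CTNND1, p120-catenin, which binds the cadherin tail and keeps cadherins at the membrane, went up from 6710 ± 335 (SD, n = 3) to 12163 ± 952 normalized counts, or by 0.86 on the log2 scale with an SE of 0.13 (DESeq2 adjusted p = 3.57e-09). CTNNB1, beta-catenin, had 28506, 29582 and 29046 normalized counts in EV and 26531, 20685 and 20510 in HDAC8. These groups did not overlap, but the gene was not called (log2 fold change -0.36, DESeq2 adjusted p = 0.0572). JUP, the plakoglobin shared by both kinds of junction, had at most 34.8 normalized counts in any library.

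Of 10 genes of cadherin processing and turnover, 0 were higher and 1 was lower (median 0.19). PSEN2, a subunit of gamma-secretase, which cuts cadherins within the membrane, stood at -0.75 on the log2 scale with an SE of 0.25 (DESeq2 adjusted p = 0.0291). It had 1547, 1817 and 1611 normalized counts in EV and 1341, 660 and 962 in HDAC8. FURIN was higher by 0.52 on the log2 scale (DESeq2 adjusted p = 0.0152), under the fold minimum, and so was not called.

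Of 11 regulators of the E-cadherin gene, 9 had an adjusted p, and of these 0 were higher and 1 was lower (median 0.03). SNAI2, a repressor of CDH1 in epithelial cells, fell by 2.19 on the log2 scale (SE 0.36, DESeq2 adjusted p = 4.16e-08), from 762, 680 and 851 normalized counts in EV to 133, 259 and 111 in HDAC8. SNAI1, ZEB1, ZEB2 and TWIST1 were not called, with log2 fold changes of 0.30, 0.14, -0.38 and 0.26.

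**Figure D5:**
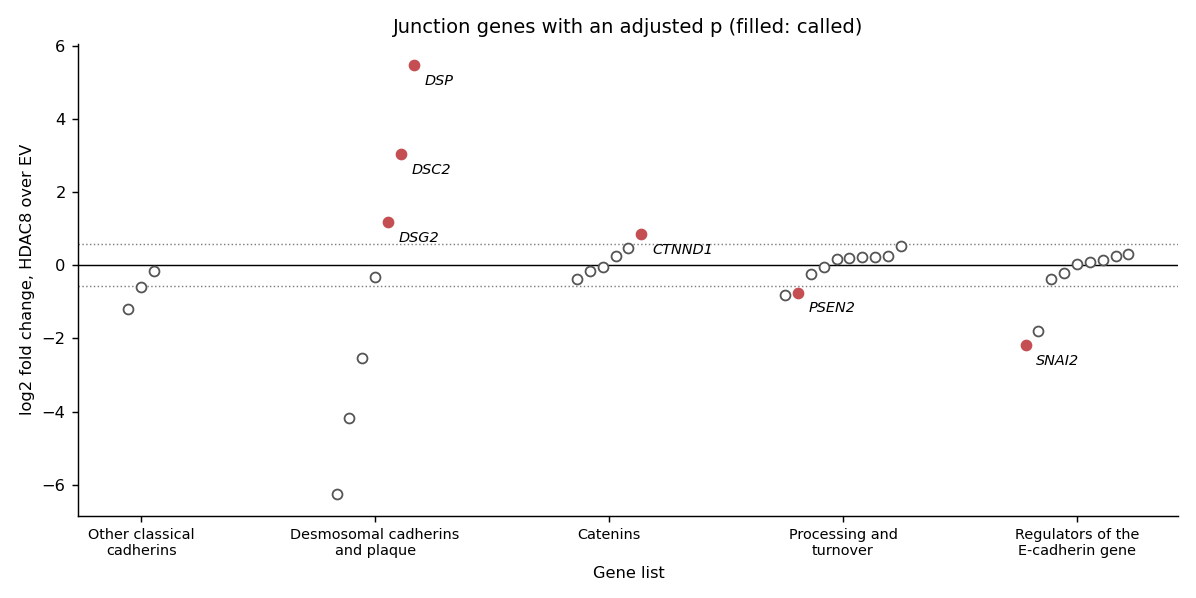
Log2 fold change of HDAC8 over EV (y axis) for the genes with an adjusted p in 5 lists of junction genes (x axis); filled red points were called and dotted lines mark 0.58 in each direction. DSP, DSC2, DSG2 and CTNND1 stand above the upper line and PSEN2 and SNAI2 below the lower one, among open points that were not called.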

How the data were processed

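RNA-seq was analysed in 6 WM164 libraries, grouped by the treatment label. Per the authors' methods, Trimmomatic trimmed the read pairs, STAR aligned what was left and RSEM estimated the reads per gene. The deposited values are expected counts, not scaled between libraries. The build and annotation used for them, and strand-specific counting, are not given in the sources used here, so overlapping genes carry extra uncertainty.

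Expected counts were rounded, and 26162 genes with a total of at least 10 went into DESeq2 1.42.0 (R 4.3.3; two-sided Wald test, default size factors, no covariates). Thresholds are those of the study's methods (Benjamini-Hochberg adjusted p of 0.05, log2 fold change of 0.58). The legend of the study's RNA-seq figure instead gives a p under 0.05 with no correction for multiple testing. Calls here may thus differ from the gene lists of the study. DESeq2 gave no adjusted p for 5141 genes. Intervals are at 95%, from the DESeq2 standard error. The floor of 3 counts covers counting error only. Positions and lengths are from GENCODE 44 (GRCh38).

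Members and lists were chosen with earlier results of these data known. Named genes are all members, up to 4 called genes per list with the largest change, called neighbours within 250 kilobases, and the 5 genes most like the called member with the largest change. Alternatives were edgeR 4.0.16, limma-voom (limma 3.58.1), other scalings, filters and thresholds, a replicate block, each library left out, and other transcript lengths. The fits were tested on simulated data. A few genes, and some lists that hold them, are not reported here. Pairs of libraries within a group were compared by chi-square, which was 26.0 to 153.4 times its degrees of freedom, so no library was a repeat of another. It was 153.4 for HDAC8 1 and 2, 101.7 for HDAC8 1 and 3, and 26.0 for HDAC8 2 and 3. In EV it was 39.0 to 47.3.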

Additional observations from a re-analysis of the deposited data

How the results depend on the processing

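Of 138 alternative values of the members' log2 fold changes, 129 kept direction and side of the threshold. Alternatives that change only the test or the threshold keep the main estimate, so their direction could not change. CDH19 lost its call in 4, CDH1 gained it in 3, and CDH4, never called, changed direction in 2, with a range from -0.68 to 0.79 across the fits that each left out 1 library (-0.12 without EV 1 and -0.68 without HDAC8 3). The count of members called lower was 2 with limma-voom, 2 with the replicate block and 0 in a test against the fold minimum itself, and 0 to 1 across the fits that each left out 1 library (without HDAC8 1 it was CDH1, not CDH19). With the block, the added gene was CDH1 (DESeq2 adjusted p = 0.0132). Replicate numbers did not pair the libraries, since the deviations from the group means in each EV and HDAC8 pair had an r of -0.03, -0.07 and 0.04 across genes. Over all genes, the test against the fold minimum called 292 higher and 291 lower, and an unadjusted p 1839 and 1856. The first asks for a change beyond the minimum, and the latter drops the correction. Leaving out 1 library gave 746 to 1378 lower genes, the fewest without EV 3, and the cause was not tested. In the junction lists, genes called lower numbered 2, against 1 in the test against the fold minimum, 1 with total-count size factors, 4 at an unadjusted p, and 1 to 2 with 1 library left out (1 without EV 2, EV 3 or HDAC8 3). With median transcript lengths CDH2 made up 44.8% of the summed level in EV and 63.8% in HDAC8, and CDH19 43.1% and 26.7%, since these lengths differ. Canonical transcript lengths, added after seeing the data, moved neither the CDH2 nor the CDH19 share by more than 1 SD. The shares of the other members were not compared in this way. At least 10 counts in every library left CDH2, CDH4, CDH19 and CDH24. Depth limits the 7 members with few counts.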
